A study of Mus musculus with 12 samples.

Results

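*Il2* and *Il3* encode cytokines known mainly as products of activated T cells. They are 2 of the 43 immune genes of a NanoString panel that was measured, together with 5 house-keeping genes, in 12 B16.F10 tumors. The pair was chosen by its measured values in these same 12 tumors, since neither gene follows the rise of the rest of the panel after NanoISD treatment. Their values and the differences between treatments are therefore given as a description, with no test. B16.F10 is a murine melanoma cell line, and the tumors grew under the skin of female C57BL/6J mice that were 6 to 8 weeks old at inoculation. At a volume of about 200 mm3, each tumor received 1 intratumoral injection of 100 µL and was harvested 6 hours later. The negative control group of 4 tumors received PBS, the vehicle control group of 4 tumors received free D-PDB (the polymer carrier without DNA, at the dose that NanoISD contains), and 4 tumors received NanoISD (the same carrier loaded with DNA that activates the sensor cGAS) at 2 µg of DNA. The deposited value of a gene in a tumor is a log2 fold change relative to the PBS-treated tumors, scaled to the house-keeping genes. A value of 0 is thus the PBS mean, and levels cannot be compared between genes. No barcode counts were analysed here, so the depth is unknown and counting error could not be calculated.

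IL-2 is the classical growth factor of T cells. It is secreted chiefly by newly activated CD4+ T cells and acts through a receptor that contains the common gamma chain, which the IL-7 receptor also uses. IL-3, also called multi-CSF, is made by activated T cells and by mast cells and basophils, and supports blood cell progenitors, mast cells and basophils through the beta common chain that it shares with GM-CSF, the product of *Csf2*. Both genes are switched on by T cell receptor signals through the calcium-dependent factor NFAT and its partners. The pathway that NanoISD targets works differently, as cGAS senses DNA in the cytosol and drives type I interferon, chemokine, and inflammatory cytokine genes through STING in many cell types.

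The promoters of both genes are shown because both genes are known targets of NFAT. The sequences are from RefSeq (build GRCm38.p6) and cover the 250 bases before each start site, both on the minus strand, at chr3:37125955-37126204 for *Il2* and at chr11:54267280-54267529 for *Il3*. Capitals mark the NFAT core, searched as GGAAA on both strands and therefore also read as TTTCC.

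*Il2*: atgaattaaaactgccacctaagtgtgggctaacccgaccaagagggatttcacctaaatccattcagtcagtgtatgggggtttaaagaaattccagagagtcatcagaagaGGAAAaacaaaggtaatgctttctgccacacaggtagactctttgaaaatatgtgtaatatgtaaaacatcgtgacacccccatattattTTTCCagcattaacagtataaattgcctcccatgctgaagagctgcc
*Il3*: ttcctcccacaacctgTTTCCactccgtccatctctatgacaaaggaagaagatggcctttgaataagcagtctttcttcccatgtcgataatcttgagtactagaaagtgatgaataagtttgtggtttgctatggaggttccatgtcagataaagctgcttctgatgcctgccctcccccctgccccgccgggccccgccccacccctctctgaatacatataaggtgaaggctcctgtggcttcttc

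The *Il2* promoter held 2 matches, at positions -137 to -133 and -47 to -43 from the start site, and the *Il3* promoter held 1, at -234 to -230. A match is common, since 55.6% of the 32851 RefSeq promoters searched over the same length held at least 1, and 21.4% held 2 or more. The AP-1 motif TGANTCA was found in neither promoter and in 6.75% of all promoters. The TATA motif TATAAA was found in the *Il2* promoter at -31 to -26, and in 12.4% of all promoters. These matches describe the sequence and were not measured as binding. On chromosome 11, *Csf2* is the nearest protein-coding neighbor of *Il3* on one side, so that the panel holds both members of this pair of genes.

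*Il2* was lowest after D-PDB and close to the PBS level after NanoISD. The PBS-treated tumors lay at -0.05, -0.02, 0.14, and -0.07 in tumors 1 to 4 on the log2 scale. After D-PDB, *Il2* was at -1.24, -0.25, -0.37, and -0.46, which is below all 4 PBS-treated tumors in every case. The value of D-PDB tumor 1 corresponds to 0.423 of the PBS level, against 0.727 to 0.841 in the other 3 tumors. After NanoISD, *Il2* was at -0.14, -0.21, 0.13, and -0.51. NanoISD tumor 3 lay within the PBS range, and the other 3 lay below it.

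The treatment means of *Il2* were -0.58 ± 0.45 (SD, n = 4) after D-PDB and -0.18 ± 0.26 (SD, n = 4) after NanoISD, and the SD was 0.10 (n = 4) after PBS. The difference from PBS was -0.58 (standard error 0.31) for D-PDB and -0.18 (standard error 0.31) for NanoISD, and NanoISD exceeded D-PDB by 0.40 (standard error 0.31), or by 0.18 without D-PDB tumor 1. The standard errors are from the limma fit over the panel, which draws the variance of each gene toward that of the other genes. The residual SD was 0.31 for *Il2* and 0.29 for *Il3*, below the panel median of 0.74. Their standard errors are therefore larger than their own spread alone would give. In the order PBS, NanoISD, D-PDB, the tumors of neighboring treatments overlapped. *Il2* was the single gene of the panel with all 4 D-PDB-treated tumors below all 4 PBS-treated tumors (1 of 43 genes, 2.33%), which is a property of the values on which it was chosen. It held under all 6 alternative scalings to the house-keeping genes. Without D-PDB tumor 1 the difference between D-PDB and PBS fell from -0.58 to -0.36, and it was -0.38 when medians replaced means, so its size depended on this 1 tumor while its sign did not.

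*Il3* had a mean below the PBS level after both treatments. In the PBS-treated tumors *Il3* was at -0.39, 0.36, -0.12, and 0.15 in tumors 1 to 4. It was at -1.0, -0.27, -0.65, and -0.45 after D-PDB, and at -0.38, -0.13, -0.63, and -0.36 after NanoISD. All 8 tumors that received D-PDB or NanoISD thus had a value below 0, as did 2 of the 4 PBS-treated tumors. Both groups nevertheless overlapped with PBS, because PBS tumor 1 lay lower than D-PDB tumor 2 and than 3 of the NanoISD-treated tumors. They also overlapped with each other, as 3 of the NanoISD-treated tumors lay within the D-PDB range.

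The means of *Il3* were -0.59 ± 0.31 (SD, n = 4) after D-PDB and -0.38 ± 0.20 (SD, n = 4) after NanoISD, with an SD of 0.33 (n = 4) after PBS. The difference from PBS was -0.59 (standard error 0.31) for D-PDB and -0.38 (standard error 0.31) for NanoISD. On a linear scale these are 0.663 and 0.771 of the PBS level. NanoISD exceeded D-PDB by 0.22 (standard error 0.31), a difference smaller than the SD of the D-PDB group, and by 0.08 without D-PDB tumor 1.

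**Figure D1:**
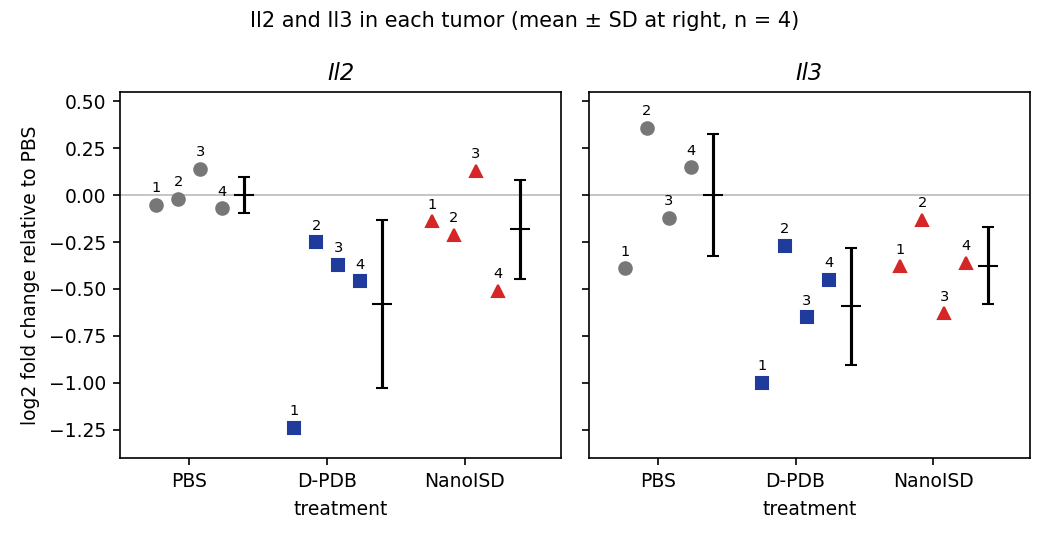
Log2 fold change of *Il2* (left) and *Il3* (right) relative to the PBS-treated tumors in each of the 12 tumors, numbered 1 to 4 within a treatment, with the mean and SD (n = 4) as the black mark and bar at the right of each group. D-PDB tumor 1 is the lowest point for both genes, at -1.24 and -1.0, and the 4 *Il2* values after D-PDB lie below the 4 PBS values.

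Between NanoISD and PBS, single house-keeping genes had differences of a size with those of *Il2* and *Il3*. *Gapdh*, which encodes a glycolytic enzyme and is one of the 5 genes that set the scale, had a difference of -0.33 for NanoISD relative to PBS, close to that of *Il3* and larger than that of *Il2*. Its difference for D-PDB relative to PBS was -0.15, well short of those of *Il2* and *Il3*. Scaling without *Gapdh* gave -0.26 for *Il2* and -0.46 for *Il3* between NanoISD and PBS, and scaling without *Rpl19*, a ribosomal protein gene that differed by 0.19, gave -0.14 and -0.33. Neither gene changed the sign of any of its 3 differences under the 16 alternatives run for each.

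Pooled over the treatments, *Il2* and *Il3* had some of the lowest spreads of the panel. The residual SD over the 3 treatments was 0.29 for *Il3*, the lowest of the 43 genes, and 0.31 for *Il2*, the third lowest, against a panel median of 0.74. A spread below the median was not particular to this pair. The genes next to them in the order of the differences between NanoISD and PBS also had one. These were *Il7* (0.43), *Ppbp* (0.64), *Lta* (0.38), and *Tgfb1* (0.44). The residual SD comes from the same values on which the 2 genes were chosen, so a low spread is not a separate trait. By group, the SD of *Il3* was 0.33 after PBS, 0.31 after D-PDB, and 0.20 after NanoISD. That of *Il2* was 0.10, 0.45, and 0.26 in the same order. The residual SDs of the house-keeping genes ranged from 0.055 to 0.17. Neither *Il2* nor *Il3* had a lowest value shared by several tumors, and both had 12 distinct values. By contrast, *Csf3*, *Ccl20*, and *Cxcl17* shared their lowest value in 5 or more tumors.

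The gap between these genes and the rest of the panel was widest in NanoISD tumor 1. The mean of the other 41 panel genes was 2.58, 0.62, 1.74, and 1.21 in NanoISD tumors 1 to 4. In NanoISD tumor 1, where the rest of the panel was highest, the value minus that mean was -2.72 for *Il2* and -2.96 for *Il3*. In NanoISD tumor 2, where the rest of the panel was lowest of the group, it was -0.83 and -0.75. *Il3* had the lowest value of all 43 genes in NanoISD tumors 1 and 3. Among the PBS-treated tumors the ranks of *Il2* and *Il3* were spread between 1 and 38 from the bottom of the panel, whereas after D-PDB and NanoISD they lay between 1 and 12. A low rank in a treated tumor reflects both genes and the rise of the others, and it is part of what chose them.

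**Figure D2:**
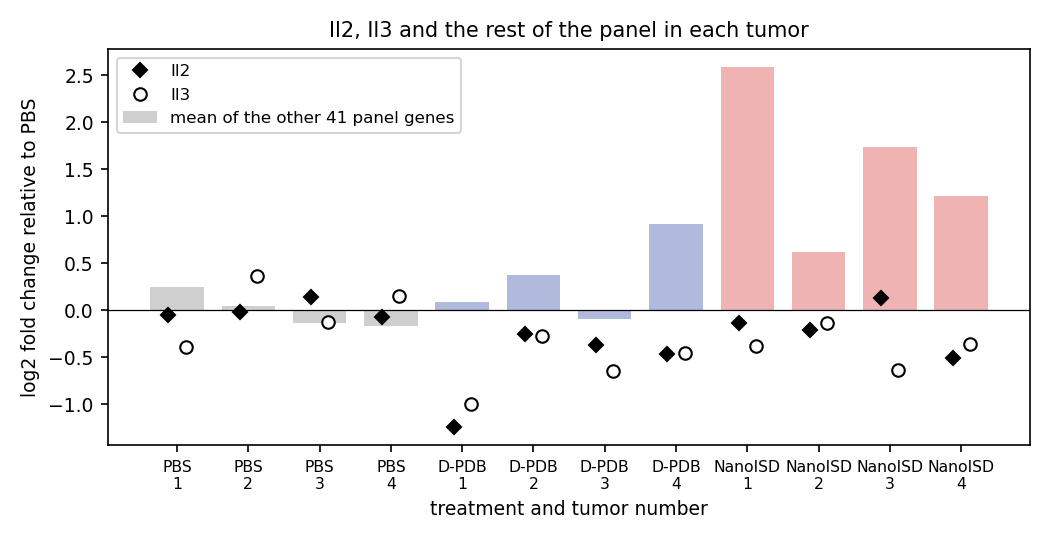
Mean log2 fold change of the other 41 panel genes (bars) with *Il2* (filled diamonds) and *Il3* (open circles) in each of the 12 tumors. The bars reach 2.58 in NanoISD tumor 1, while *Il2* and *Il3* stay between -0.63 and 0.13 in all 4 NanoISD-treated tumors.

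In the order of the differences between NanoISD and PBS, *Il3* was the lowest of the 43 genes and *Il2* the second lowest. The genes next to them were *Il7*, which encodes a stromal growth factor of lymphocytes, at -0.04, and *Ppbp*, which encodes a platelet chemokine, at -0.04. These 4 genes had a mean below the PBS level, and 39 genes had a mean above it. Just above 0 were *Lta*, which encodes lymphotoxin alpha, at 0.12, and *Tgfb1*, which encodes a regulatory cytokine, at 0.25. The signs of *Il7* and *Lta* turned in some of the alternatives run. As background, 22 of the 43 panel genes (51.2%) were higher after NanoISD than after PBS at an adjusted p of 0.05 in limma, and 18 (41.9%) had all 4 NanoISD-treated tumors above all 4 PBS-treated tumors. That *Il2* and *Il3* stand outside these counts was fixed by the way they were chosen. Between NanoISD and D-PDB, 11 genes (25.6%) were higher in limma and 8 (18.6%) had all 4 NanoISD-treated tumors above all 4 D-PDB-treated tumors. This count of 11 fell to 2 with only the NanoISD and D-PDB groups in the fit. When tumors were left out singly, it fell to 5 for D-PDB tumor 1 or 3 and to 7 for D-PDB tumor 2, and it rose to 17 for D-PDB tumor 4 and to 20 for NanoISD tumor 2. Between D-PDB and PBS, 0 of 43 genes (0%) were higher at an adjusted p of 0.05 in limma, and 1 was at an unadjusted p of 0.05. In this comparison *Il7*, *Il3*, and *Il2* had the lowest differences of the panel, with *Il7* at -0.67.

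The other ligands of the panel that activated T cells or NK cells are known to make were *Lta*, *Fasl*, *Xcl1*, *Ccl1*, and *Csf2*. Of these 5 genes, 2 rose after NanoISD relative to PBS in limma, beside 22 of 43 genes (51.2%) over the panel, and 0 fell. The median difference was 1.19, beside 1.20 over the 43 genes. *Fasl*, which encodes the death ligand of cytotoxic lymphocytes, was at 2.09, 0.65, 0.82, and 1.18 in the NanoISD-treated tumors, all above the PBS-treated tumors, the highest of which was at 0.47. Its difference was 1.19 (standard error 0.39, adjusted p = 0.0224 in limma). *Ccl1*, which encodes a chemokine of activated T cells, differed by 1.53 (standard error 0.56, adjusted p = 0.0362 in limma). This count of 2 rested on single tumors. It was 0 without PBS tumor 1 or 2 or NanoISD tumor 1, 1 without PBS tumor 4 or NanoISD tumor 3, 1 with the replicate number as a block, and up to 3 without other tumors. *Csf2*, the chromosomal neighbor of *Il3*, differed by 1.20 (adjusted p = 0.0607 in limma), with NanoISD tumors 1 and 3 at 2.27 and 1.78 and tumors 2 and 4 at 0.49 and 0.26. *Xcl1*, which encodes lymphotactin, a chemokine of CD8+ T cells and NK cells, differed by 0.31 (adjusted p = 0.470 in limma), and *Lta* by 0.12 (adjusted p = 0.770 in limma). When NanoISD was set against D-PDB, limma called 0 of these 5 genes, beside 11 of 43 genes (25.6%) over the panel. Among the 5, 1 gene (*Fasl*) had an unadjusted p under 0.05 (0.0398 in limma). The median difference was 0.57, beside 1.01 over the 43 genes. For D-PDB relative to PBS, limma called 0 of the 5 at either an adjusted or an unadjusted p of 0.05.

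Other panel ligands are made by both activated T cells and myeloid cells. Of *Ccl3*, *Ccl4*, *Ccl5*, *Tnfa*, and *Il10*, 4 rose after NanoISD relative to PBS in limma, with a median difference of 2.05 over the 5, beside 22 of 43 genes (51.2%) and a median of 1.20 over the panel. *Ccl4*, which encodes an inflammatory chemokine, differed by 2.53 (standard error 0.56, adjusted p = 0.00476 in limma). *Tnfa* (*Tnf* in RefSeq), which encodes the inflammatory cytokine TNF, did not pass, at 0.54 (adjusted p = 0.188 in limma). Relative to D-PDB, 4 of the 5 rose as well, beside 11 of 43 genes (25.6%), and *Ccl5* did not pass (1.28, adjusted p = 0.101 in limma). *Tnfa* was among these 4 at 1.01 (adjusted p = 0.0470 in limma), a call that held in 9 of 23 alternatives, and all its D-PDB-treated tumors lay below 0. The calls of *Ccl3*, *Ccl4*, and *Il10* relative to D-PDB held in 21, 22, and 20 of 23 alternatives, and none of the 3 passed when the PBS group was left out of the fit (adjusted p = 0.0590, 0.0516, and 0.0590 in limma). Without D-PDB tumor 3 the calls of *Ccl3* and *Il10* were also lost, and without D-PDB tumor 1 that of *Il10*. Whether the 2 lists differ in their response was not tested, and *Il2* and *Il3* belong to neither count.

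Among the growth factors of blood cells, to which IL-3 belongs as multi-CSF, 2 of 5 rose after NanoISD relative to PBS in limma, beside 22 of 43 genes (51.2%) over the panel. These were *Csf1* and *Csf3*, the factors of macrophages and neutrophils, with differences of 1.81 and 1.90. *Csf2*, *Kitl* (stem cell factor, 0.82, adjusted p = 0.106 in limma), and *Il7* did not pass, and the median over the 5 was 1.20, as over the 43 genes. Relative to D-PDB *Csf1* and *Csf3* also rose, beside 11 of 43 genes (25.6%) over the panel. The call of *Csf1* held in 8 of 23 alternatives. The call of *Csf3* held in 18 of 22, and was lost without D-PDB tumor 1, 2, or 3 and with only the NanoISD and D-PDB groups in the fit. Of the 3 other interleukins of the panel, *Il6* and *Il10* rose relative to PBS, beside 22 of 43 genes (51.2%) over the panel. *Il6* differed by 3.68 (adjusted p = 0.000448 in limma) and *Il10* by 2.07 (adjusted p = 0.00476 in limma). Both also rose relative to D-PDB, beside 11 of 43 genes (25.6%), *Il6* in all 23 alternatives and *Il10* in 20 of them. *Il7*, whose receptor shares the common gamma chain with that of IL-2, was at 0.05, -0.15, 0.10, and -0.17 in the NanoISD-treated tumors, against -0.32 to 0.21 in the PBS-treated tumors (adjusted p = 0.929 in limma). The values of *Il7*, *Il2*, and *Il3* thus lay between -0.63 and 0.13 in all NanoISD-treated tumors, whereas those of *Il6* lay at 2.30 or higher.

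Within treatments, *Il2* and *Il3* were not shown to vary together. Over the 12 tumors, the deviations of the 2 genes from their treatment means had a Pearson r of 0.35 (two-sided exact permutation of tumors within treatments, p = 0.357) and a Spearman rho of 0.15 (exact permutation p = 0.667), the only relation between genes that was tested. D-PDB tumor 1 was low in both genes, with deviations of -0.66 for *Il2* and -0.41 for *Il3*. Leaving this tumor out gave r = -0.23, and leaving out the 2 tumors farthest from the median of *Il2*, which are this one and NanoISD tumor 4, gave r = -0.32. The positive r thus rested on D-PDB tumor 1. In NanoISD tumor 3, *Il2* was the highest of its group and *Il3* the lowest.

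**Figure D3:**
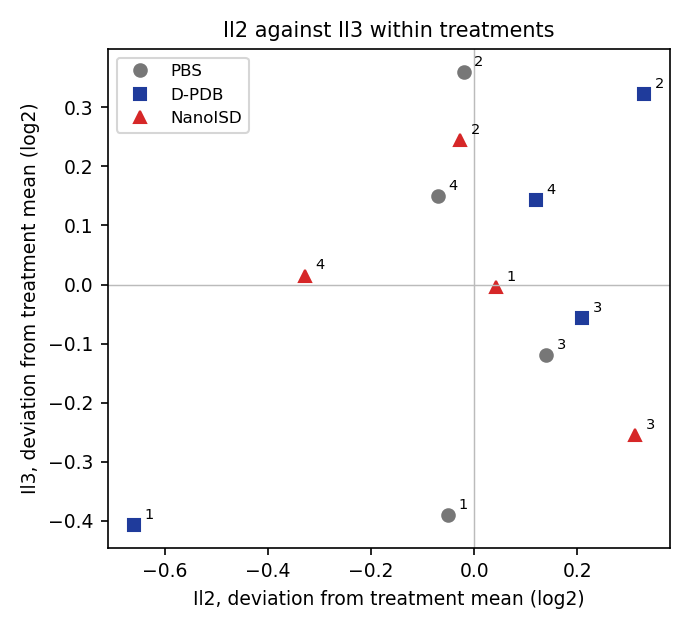
Deviation of *Il3* from its treatment mean against that of *Il2*, on the log2 scale, for 12 tumors numbered 1 to 4 within each treatment. D-PDB tumor 1 lies alone at the lower left, at -0.66 and -0.41, and r is 0.35 with it and -0.23 without it.

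The genes whose deviations were most like those of *Il2* over the 12 tumors were *Ifnb1* (r = 0.85), which encodes interferon beta, *Il7* (r = 0.85), and *Lta* (r = 0.75). Those most like *Il3* were *Il7* (r = 0.68), *Lta* (r = 0.56), and *Il2* (r = 0.35). All values of a tumor share its scaling to the house-keeping genes, and these coefficients are a description with no test. Without D-PDB tumor 1, r with *Il2* was 0.72 for *Ifnb1*, 0.47 for *Il7*, and 0.56 for *Lta*, and r with *Il3* was 0.48 for *Il7* and 0.33 for *Lta*. *Ifnb1* then stayed the most like *Il2*, while *Il7* moved from rank 2 to rank 8 and *Lta* from rank 3 to rank 7, and *Il7* and *Lta* stayed the most like *Il3*. The mean of the other 41 panel genes had an r of 0.24 with *Il2* and of -0.11 with *Il3*.

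D-PDB tumor 1 was low in more than *Il2* and *Il3*. Of the 40 panel genes with a single lowest value, 14 had it in this tumor, including *Ifnb1* at -1.16, *Il7* at -1.64, *Ppbp* at -1.19, *Tnfa* at -0.74, and *Lta* at -0.67. In the same tumor *Ccl1* was at 1.79 and *Ccl5* at 1.16, both above all PBS-treated tumors, and the mean of the other 41 panel genes was 0.09. The values of *Il2* and *Il3* in this tumor lay between -1.31 and -1.20 and between -1.07 and -0.96 under the alternative scalings. The part of RNA quality, sampling of the tumor, or its cell makeup in these low values was not tested.

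The panel held none of 17 markers that were looked for, among them *Cd3e*, *Cd4*, and *Cd8a* for T cells, *Ptprc* for leukocytes, and *Mlana* and *Tyr* for melanoma (0 of 17). The origin of the *Il2* and *Il3* signal from T cells could therefore not be checked, nor could the identity of the tumor tissue. In these bulk tumors, fewer T cells and less *Il2* or *Il3* RNA per cell cannot be told apart.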

How the data were processed

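RNA of each tumor (100 ng) was measured by the authors on a NanoString nCounter panel and read out through nSolver. The log2 fold changes deposited by the authors, given to 2 decimals, were used without further scaling. The nSolver version and its background threshold are not given in the sources used here. Means over the 4 PBS-treated tumors lay within 0.0025 of 0 for every gene, and means over the house-keeping genes within 0.002 of 0 for every tumor.

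Groups were taken from the sample titles. The members and gene lists were chosen with earlier results of these data known. Genes were fitted with limma 3.58.1 in R 4.3.3 (lmFit and eBayes, 3 treatments in 1 fit of 12 tumors), and p-values were adjusted by the Benjamini-Hochberg method across the 43 panel genes, separately by comparison, with calls at 0.05. House-keeping genes were left untested. The relation of *Il2* to *Il3* was tested over all 13824 arrangements of tumors within treatments. Both procedures were tested on simulated data. Python 3.11.15, numpy 2.4.6, and pandas 2.3.3 were used otherwise.

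Genes named are *Il2*, *Il3*, the 4 lists, the house-keeping genes, the genes with a NanoISD mean at or below PBS and the next 2 above, and the 3 most correlated with each member. *Ccl20* and *Cxcl17* were named after their values were seen. All 43 names matched RefSeq, 42 as the symbol and *Tnfa* as a synonym. The number of tumors limits the precision. Alternatives covered the house-keeping genes, tumors left out, and forms of the fit.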

Additional observations from a re-analysis of the deposited data

Results flagged for a closer look

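A search for single tumors far from the other 3 of their treatment covered 75 groups of 4 tumors, over the 25 genes named by rule, and found 3, against 3.75 by chance at 5%. None was in *Il2* or *Il3*. *Csf1* was at 0.08 in NanoISD tumor 2, with the others between 2.27 and 2.51. *Csf3* was at 0.22 in PBS tumor 2, with the others at -0.07, the lowest value of that gene. *Kitl* was at 2.13 in NanoISD tumor 1, with the others between 0.22 and 0.51.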

How the results depend on the processing

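The differences of *Il2* and *Il3* between treatments kept their sign and moved by less than the residual SD in all 16 alternatives run for each. With tumors left out in turn, *Il2* ranged from -0.69 to -0.36 for D-PDB and from -0.29 to -0.07 for NanoISD relative to PBS, and *Il3* from -0.72 to -0.46 and from -0.51 to -0.26. The r between them ranged from -0.23 to 0.56 with tumors left out, and was -0.32 without the 2 tumors farthest from the median of *Il2*. With both genes taken relative to the mean of the other 41 genes, r was 0.86. The same value is then subtracted from both genes in each tumor, which by itself makes them vary together. This r therefore says nothing about a relation of *Il2* to *Il3*, and no p-value is given for it. With the replicate number as a block r was 0.50 (exact permutation p = 0.138). Same-numbered tumors of different treatments had an r of their deviations from -0.52 to 0.47 (median -0.08, 12 combinations). For tumors with different numbers it was from -0.57 to 0.70 (median 0.02, 36 combinations). These values showed no pairing by number, but they cannot exclude that same-numbered tumors were handled together, which the sample titles do not say. The genes called between NanoISD and D-PDB were 2 with only these treatments in the fit and 5 to 20 with tumors left out, and those between NanoISD and PBS were 16 to 26. Of the other lymphocyte-made ligands, 0 to 3 were called with tumors left out and 1 with the replicate block. Of the growth factors, 1 was called without genes that share a lowest value, since *Csf3* is one of these. The cause of the other shifts was not tested. How close *Il2* and *Il3* lie to the background of the assay is unknown, as no counts were analysed here.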
